A study of Mus musculus with 8 samples.

Results

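The 37 genes described here encode heat shock proteins and chaperones, their co-chaperones, and the transcription factors Hsf1 and Hsf2. Their probes were taken by symbol: every non-control probe whose gene name in the array files was one of the 37 was taken. Of the 37 genes, 36 had such a probe, and together they had 53 of the 55681 probes on the array. Hspa1b had none. All 53 probes were well above background on all 8 arrays, so no gene was lost to the filter on dim probes, and the 36 genes were tested among 19694 features, each the brightest probe of a gene. Most of these proteins work in the cytosol, but Hspa9, Hspd1 and Hspe1 encode mitochondrial chaperones and Hspa13 a chaperone of the endoplasmic reticulum.

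The cells were MAM326, a mouse mammary cancer line, grown in DMEM with 10% serum at 37 °C, detached and sorted by flow cytometry into GFP-positive and GFP-negative fractions 2 days after seeding. The labels name no treatment, and no heat stress, of either fraction. There were 4 arrays of each fraction, from 4 experiments at different passages, and each array received Cy3-labelled cRNA made from 20 ng of total RNA. All the cells come from a single line. The sources used here do not say what drives its GFP or which array belongs to which experiment, so p-values measure the spread between these arrays. The question of the study was what distinguishes stem-like mammary cancer cells in their transcripts. On each array 45.1% to 57.4% of probes were well above background, and having only 4 arrays a group limits the precision. All 6 mammary epithelial markers examined (Epcam, Cdh1, Krt8, Krt18, Krt5 and Krt14) were well above background on all 8 arrays. Their median difference, GFP-positive minus GFP-negative, was 0.44 on the log2 scale. In limma, 2 were higher at an unadjusted p under 0.05 and 0 past the adjusted threshold, beside 7.83% and 1.81% of all features. In row 1 of the slide, laid out below, they differed by 0.59 (Krt18) to 1.84 (Krt5). In row 2 Krt5 (0.51) and Krt14 (0.15) stayed positive, and Krt8, Krt18, Cdh1 and Epcam were negative (-0.30 to -0.14).

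Chaperones bind proteins that are not yet folded, or that are losing their fold, and keep them from aggregating. HSP70 proteins bind short exposed stretches and are driven by J-domain (HSP40) partners and exchange factors, HSP90 completes the folding of kinases and steroid receptors with a relay of co-chaperones, and chaperonins fold proteins such as actin and tubulin inside a closed chamber. Small heat shock proteins hold unfolded clients without using ATP. When unfolded protein accumulates, Hsf1 is released from chaperones, forms trimers and binds heat shock elements, repeats of the unit GAA in alternating orientation, upstream of many of these genes.

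The promoters of 5 genes are printed because they show how differently these repeats are laid out among genes whose levels are given further on. Each is the 150 bases before a transcription start, read from RefSeq on GRCm38.p6, 5′ to 3′ on the gene's strand, with every match to GAANNTTC or TTCNNGAA, the 2 orders in which opposed units can meet, in capitals.
Hspa1a (chr17:34972157-34972306, minus strand): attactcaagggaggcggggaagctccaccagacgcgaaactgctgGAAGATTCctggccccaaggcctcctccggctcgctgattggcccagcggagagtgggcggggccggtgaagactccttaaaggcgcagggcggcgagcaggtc
Hspa1b (chr17:34959239-34959388, minus strand): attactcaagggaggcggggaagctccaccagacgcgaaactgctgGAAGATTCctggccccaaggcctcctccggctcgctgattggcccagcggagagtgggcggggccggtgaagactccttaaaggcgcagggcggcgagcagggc
Hspb1 (chr5:135887769-135887918, plus strand): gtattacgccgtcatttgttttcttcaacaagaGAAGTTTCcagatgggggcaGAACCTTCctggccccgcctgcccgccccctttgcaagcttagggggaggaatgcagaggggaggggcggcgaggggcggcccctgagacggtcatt
Hspe1 (chr1:55087998-55088147, plus strand): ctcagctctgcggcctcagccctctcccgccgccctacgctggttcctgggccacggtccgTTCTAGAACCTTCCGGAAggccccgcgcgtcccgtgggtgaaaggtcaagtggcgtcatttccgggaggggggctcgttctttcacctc
Hsph1 (chr5:149636337-149636486, minus strand): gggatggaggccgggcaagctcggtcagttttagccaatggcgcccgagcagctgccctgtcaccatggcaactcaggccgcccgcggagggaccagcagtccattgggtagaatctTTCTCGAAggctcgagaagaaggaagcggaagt
The Hspa1a and Hspa1b stretches differ at 1 base, and each holds a single pair. Hspb1 holds 2 separate pairs, Hsph1 a single pair close to the start, and Hspe1 a continuous run of alternating units. Hsph1 also holds a run of 3 alternating units just after its start, outside the printed stretch. Hspd1 lies head to head with Hspe1, with 215 bases between the Hspe1 start and an Hspd1 start, so the run printed for Hspe1 is also upstream of that Hspd1 start. Another listed Hspd1 start lies beyond the Hspe1 start, so the run is downstream of it, and its window held no match. In windows from 250 bases before to 50 bases from the start on, which were found for 28 of the 37 genes, 16 genes (57.1%) held GAANNTTC or TTCNNGAA, against 17% of the 27025 genes in the table. Either motif reads the same on both strands, and matches may overlap. At least 3 alternating units, that is, both motifs overlapping in a shared unit, occurred in 5 of the 28 (Chordc1, Dnajb6, Hspd1, Hspe1 and Hsph1, 17.9%) against 0.662% of all genes. The windows of Hspa8, Hspa9, Hspa13, Cryab, Hsp90aa1, Hsp90ab1, St13, Cct4 and Hsf1 were not searched. Among the searched genes with a measured probe, the median difference between GFP-positive and GFP-negative cells was -0.29 for the 15 with a match, of which 12 were negative, and -0.22 for the 12 without, of which 11 were negative. A match is a description of the sequence and not evidence of binding.

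Most of the chaperone mRNAs had lower values in GFP-positive than in GFP-negative cells, by small amounts. A single gene, the small heat shock protein gene Cryab, rose past the adjusted threshold. Levels throughout are log2 processed signal relative to the array's 75th percentile, and differences are GFP-positive minus GFP-negative on that log2 scale. Of the 36 genes, 30 had a negative difference and 6 a positive one. Their median was -0.24, against -0.06 over all features. Of all features 60.7% were negative, and of the brightest class, defined below, 80.1%. In limma, with adjustment over all features, 1 gene passed an adjusted p of 0.05 as higher (Cryab) and 1 as lower (Hsph1), beside 1.81% and 0.741% of all features called higher and lower. A count of 1 in 36 is the smallest that can be seen, so these counts do not set the genes apart. At an unadjusted p under 0.05, 21 of 36 were lower and 1 higher, beside 15.1% and 7.83% of all features. The 4 GFP-positive arrays lay wholly below the 4 GFP-negative ones for 19 genes and wholly above for 1, beside 11.6% and 5.06% of all features. Leaving out GFP-positive replicate 2 left 3 genes past the threshold (Cryab, Ahsa1 and Cct3) and leaving out GFP-negative replicate 1 left 2 (Cryab and Dnajb4). Without GFP-positive replicate 1, 0 passed, with 18 lower at an unadjusted p under 0.05, and with any other single array left out Cryab alone passed. Calls over all features moved too. They were 357 higher and 146 lower with all arrays, and 146 and 4 without GFP-positive replicate 1. Without GFP-positive replicate 2 they were 302 and 120, and without GFP-negative replicate 1 they were 279 and 39. The 2982 features lower at an unadjusted p under 0.05 became 1935 without GFP-positive replicate 1. These are bulk samples, in which fewer cells of a kind and less RNA per cell cannot be told apart.

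Quantile normalization, which gives all arrays the same distribution of signals, brought the median difference nearer to 0. The median over the 36 genes became -0.15, against -0.03 over all features, with 29 negative and 7 positive. Cryab remained the only gene past an adjusted p of 0.05, with 1 higher and 0 lower, beside 1.71% and 0.416% of all features. At an unadjusted p under 0.05, 12 genes were lower and 4 higher, beside 10.7% and 8.65% of all features, and those 4 were Cryab, Hspb1, Hspa8 and Dnajb6. Without overlap of the groups, 12 genes were lower and 2 higher, beside 7.6% and 5.81% of all features. Other scalings gave other splits. Scaling to the array median called 1 higher and 1 lower (181 higher and 21 lower over all features, whose median moved to -0.18), and background correction by normexp called 1 higher and 8 lower (423 and 362).

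**Figure D1:**
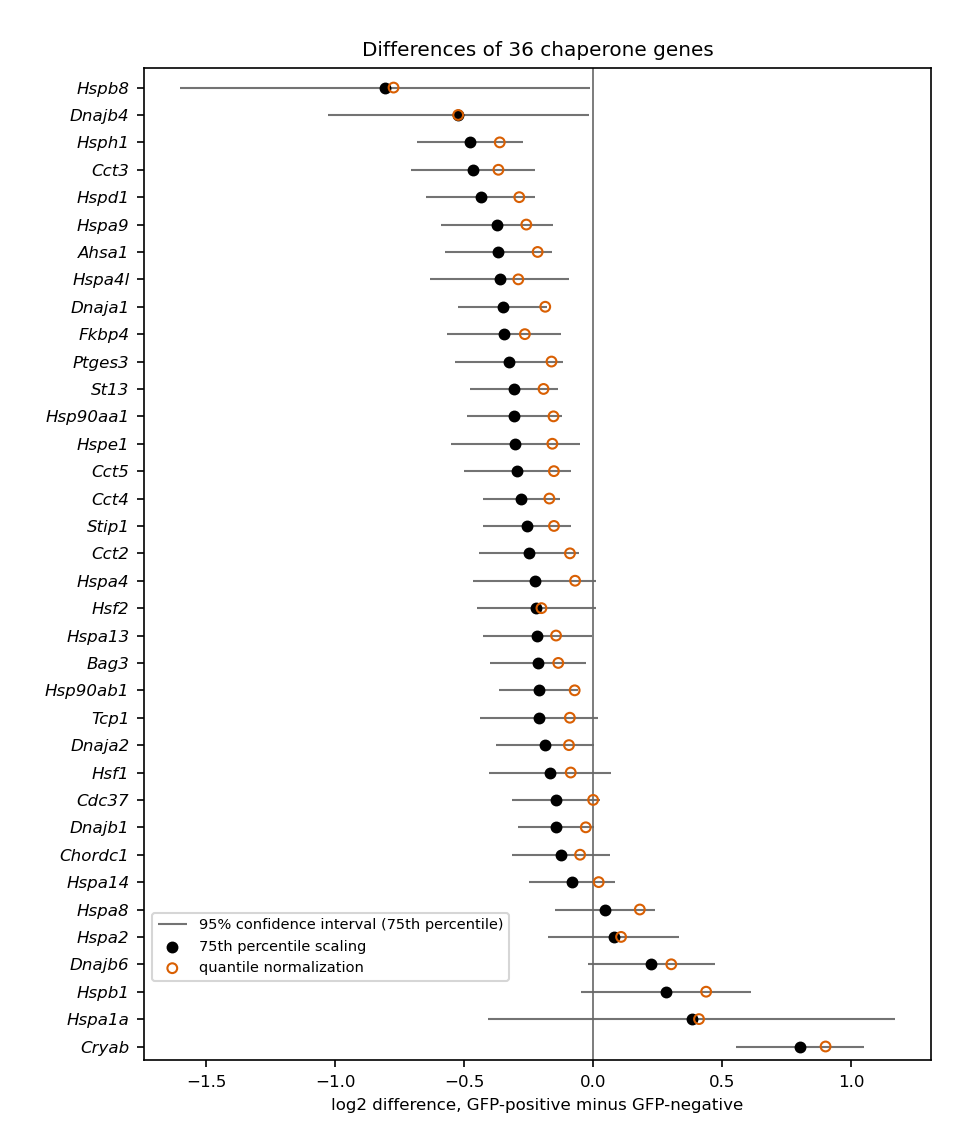
Log2 difference of each of the 36 measured genes (GFP-positive minus GFP-negative, horizontal axis), ordered by size: filled circles with 95% confidence intervals of the limma fit after scaling to the 75th percentile, open circles after quantile normalization, 4 arrays a group. Under the first scaling 30 circles lie left of 0; the open circles lie to the right of the filled ones for all but Dnajb4, and that of Hspa14 crosses 0.

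Brightness moved with these differences. Most of the 36 probes are among the brightest on the array. With the features split into 4 equal classes by mean level, 28 of 36 fell in the brightest class, 7 in the next and 1, Dnajb4, in the one below that. Over all features, the median difference ran from 0.04 in the dimmest class through -0.02 and -0.07 to -0.14 in the brightest, where 28.4% of features were lower at an unadjusted p under 0.05. Of the 28 chaperone genes in that class, 17 were, and their median was -0.25. By sign alone, 24 of these 28 were negative, beside 80.1% of all features in that class. After quantile normalization the median of the brightest class was -0.02 and 12% of its features were lower at that p, against 11 of the 28 chaperone genes.

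**Figure D2:**
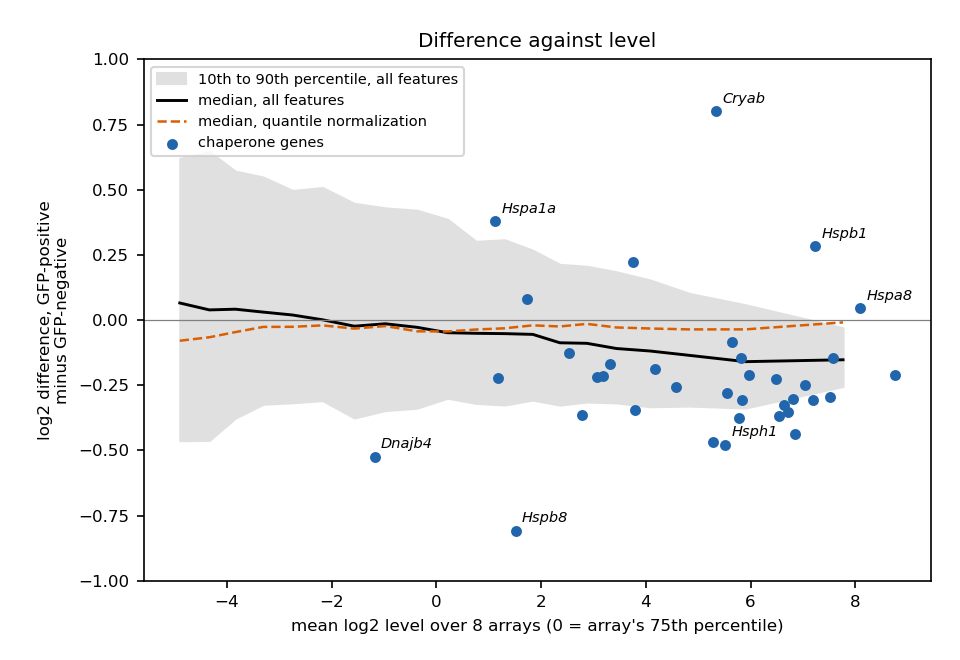
Log2 difference (vertical axis) against mean log2 level over 8 arrays (horizontal axis, 0 is the array's 75th percentile). Points are the 36 chaperone genes, the band spans the 10th to 90th percentile of all 19694 features in 20 bins of equal size, the solid line is their median and the dashed line their median after quantile normalization; the solid line sinks below 0 where most chaperone genes lie, and the dashed line stays near 0.

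Among the small heat shock proteins, Cryab was the gene that rose past the adjusted threshold. Cryab encodes alpha-B crystallin, a holdase that is abundant in lens and muscle and is also made by basal-type mammary cells. Its levels were 5.12, 4.76, 5.02 and 4.86 in GFP-negative replicates 1 to 4 and 5.84, 5.74, 5.84 and 5.55 in GFP-positive replicates 1 to 4. Every GFP-positive array was above every GFP-negative one. The difference was 0.80 ± 0.11 (SE), which is 1.74-fold higher (adjusted p = 0.0105), at a probe at chr9:50564566-50564625, plus strand of mm9, and 0.90 after quantile normalization (adjusted p = 0.00971). A second Cryab probe, at position 595 of the transcript rather than 1012, differed by 0.78 ± 0.15 (SE, adjusted p = 0.0447 with every kept probe as a feature). The difference was 1.03 between the 2 arrays of each group in row 1 of the slide and 0.57 in row 2. Row 1 held GFP-positive replicates 1 and 3 and GFP-negative replicates 2 and 4, and row 2 the other 4 arrays. Across features, which are not independent replicates, deviations from the group means correlated at r from 0.336 to 0.653 between arrays of opposite groups whose different numbers were both odd or both even, against -0.535 to -0.157 for odd with even and -0.03 to 0.19 for equal numbers. A contrast between the row values of a gene is, by this layout, also a contrast of odd with even numbers. A shift shared by all arrays of a row cancels in these differences. A group difference that varies with row cannot be told apart from that split. Without GFP-positive replicate 1 the difference was 0.77 and its adjusted p 0.0510, the only array whose removal ended the call.

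Hspb8 and Hspb1 were less even between arrays. Hspb8, which encodes a small heat shock protein that works with Bag3 in selective autophagy, had levels of 1.09, 2.32, 1.88 and 2.39 on the GFP-negative arrays and 1.07, 1.61, 0.42 and 1.34 on the GFP-positive ones, replicates 1 to 4 in each. The groups overlapped, because GFP-negative replicate 1 was as low as the GFP-positive arrays. The difference was -0.81 ± 0.34 (SE) with an adjusted p of 0.213, and it was -1.61 in slide row 1, where 2 arrays stand against 2 (adjusted p = 0.0436), and -0.01 in slide row 2. Bag3, the co-chaperone that links HSP70 to small heat shock proteins, was nearly level across GFP-negative arrays, at 3.29, 3.28, 3.29 and 3.29, and read 3.10, 3.20, 3.10 and 2.88 on the GFP-positive ones. Those groups did not overlap, with a difference of -0.22 ± 0.08 (SE, adjusted p = 0.171). For Hspb1, which encodes HSP27, a regulator of actin and of apoptosis, the difference was 0.28 with a confidence interval of -0.05 to 0.61, and it was 0.63 in slide row 1 and -0.07 in slide row 2.

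**Figure D3:**
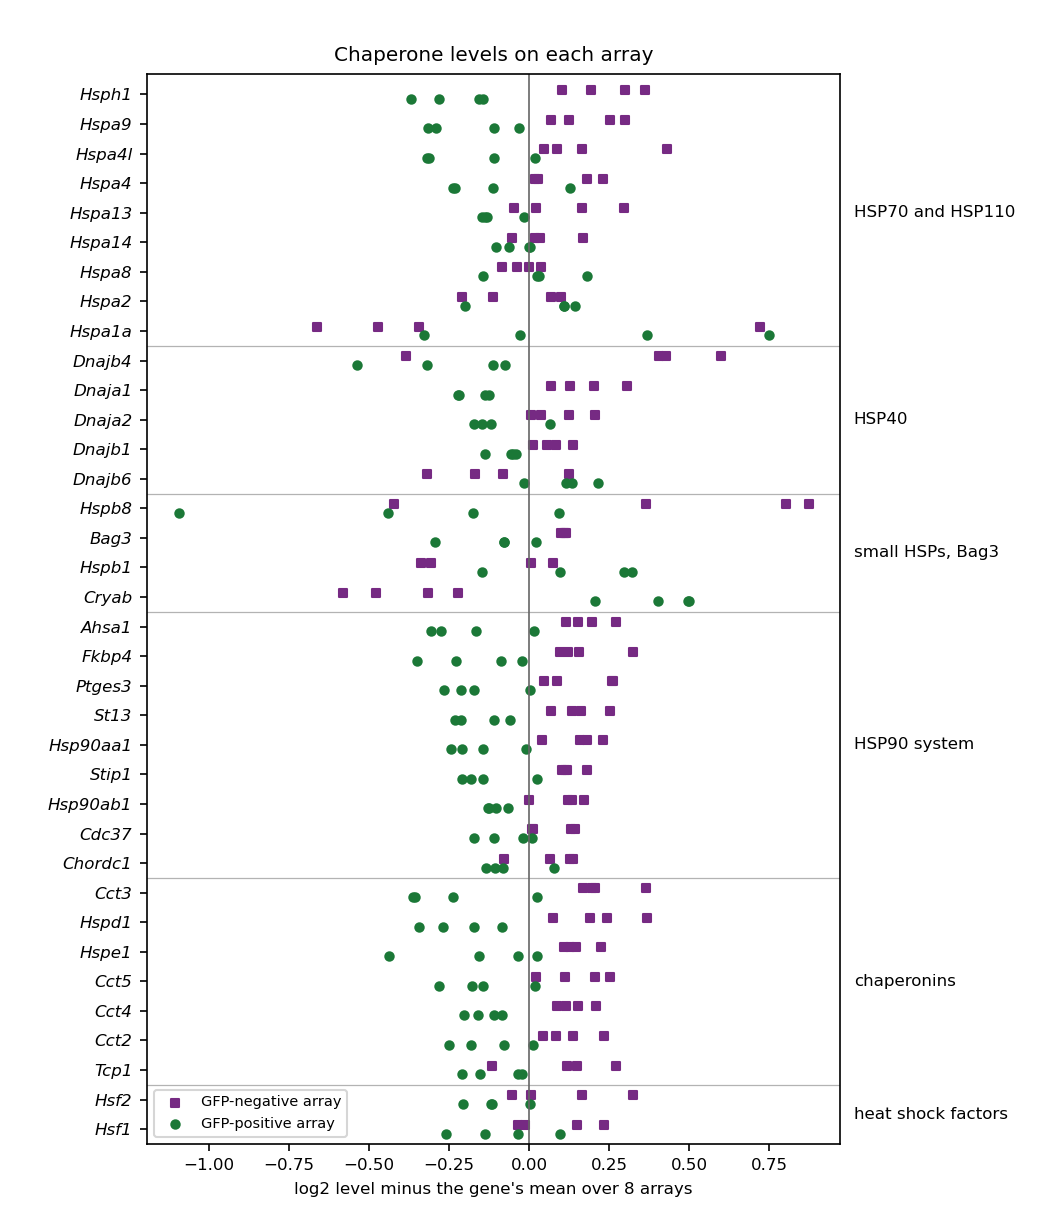
Log2 level of each of the 36 measured genes on each array, as deviation from the gene's mean over 8 arrays (horizontal axis), genes grouped by role; squares are the 4 GFP-negative arrays and circles the 4 GFP-positive ones. Circles and squares do not overlap for 20 genes, 7 of them in the HSP90 system and 6 among the chaperonins, and Cryab is the only one of these with circles on the right.

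The HSP70 family held both directions. Hsph1 encodes HSP110, the exchange factor of HSP70 and a part of the disaggregase, and it was the only gene that fell past the threshold. Its levels were 5.88, 5.62, 5.82 and 5.71 in GFP-negative replicates 1 to 4 and 5.24, 5.38, 5.36 and 5.15 in GFP-positive replicates 1 to 4. The groups did not overlap, and the difference of -0.48 ± 0.09 (SE), 1.39-fold lower, had an adjusted p of 0.0367 (chr5:150419744-150419803, minus strand, mm9). A second probe of Hsph1 differed by -0.40 (adjusted p = 0.0695 with every kept probe as a feature). After quantile normalization the difference was -0.36 with an adjusted p of 0.0786, and leaving out any 1 of the 8 arrays put the adjusted p between 0.0513 (without GFP-positive replicate 2) and 0.137 (without GFP-positive replicate 1).

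Of the other HSP70 genes, 3 had unadjusted p-values under 0.05 and none passed the threshold. With Hsph1, 4 of the 9 measured genes of the family were lower at that p. Over all features 15.1% were, with 28.4% in the brightest class and 18.1% in the next. Hspa9 encodes mortalin, the motor of mitochondrial protein import. It read 6.08, 5.85, 5.90 and 6.03 on the GFP-negative arrays and 5.46, 5.74, 5.67 and 5.49 on the GFP-positive ones, without overlap, and differed by -0.37 ± 0.09 (SE), adjusted p 0.0749. Hspa4l, a relative of HSP110, read 2.86, 2.94, 2.82 and 3.20 against 2.45, 2.79, 2.46 and 2.66, also without overlap, a difference of -0.36 (adjusted p = 0.125). After quantile normalization the groups overlapped for Hspa9 (-0.26) but not for Hspa4l (-0.29). Hspa13, at 3.09, 3.23, 3.02 and 3.37 against 2.94, 3.05, 2.93 and 2.92, overlapped by 1 array on either side and differed by -0.22 (adjusted p = 0.208). The remaining genes of the family had wider or smaller differences. Hspa4, another exchange factor, differed by -0.23 and Hspa14, a ribosome-associated member, by -0.08, the latter with the opposite sign (0.021) after quantile normalization. Hspa2, known from the testis, differed by 0.08 and the constitutive Hspa8 by 0.04. Both of these turned negative when arrays were scaled to their medians.

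The stress-inducible pair Hspa1a and Hspa1b was read by a single probe. It is shown because the array files assign it to transcripts of both genes, so their mRNAs cannot be told apart.
Hspa1a probe (chr17:35107117-35107176, minus strand, mm9): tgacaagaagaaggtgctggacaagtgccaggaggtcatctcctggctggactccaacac
Its levels were 0.78, 0.46, 1.85 and 0.65 in GFP-negative replicates 1 to 4 and 1.88, 1.10, 1.50 and 0.80 in GFP-positive replicates 1 to 4. GFP-positive replicate 1 and GFP-negative replicate 3 were the highest, and the groups overlapped widely. The difference of 0.38 ± 0.34 (SE) had a confidence interval of -0.41 to 1.17 and an unadjusted p of 0.299, and its sign differed between slide rows, at 1.13 in row 1 (adjusted p = 0.0471, 2 arrays against 2) and -0.37 in row 2. The mean deviation of 10 immediate early genes, which respond within minutes to handling, was also highest on GFP-negative replicate 3 (0.46) and GFP-positive replicate 1 (0.44), and it ran from -0.56 to 0.31 on the other 6 arrays. Of those 10 genes, 1 was past the threshold (Btg2, also a target of p53), and the part of handling in the Hspa1a levels was not tested.

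J-domain proteins choose the clients of HSP70 and start its ATP cycle. Of the 5 measured here, 4 had negative differences, beside 60.7% of all features. Dnaja1, the major cytosolic one, read 7.02, 6.78, 6.92 and 6.84 on the GFP-negative arrays and 6.50, 6.59, 6.58 and 6.49 on the GFP-positive ones. The groups did not overlap, with a difference of -0.35 ± 0.08 (SE) and an adjusted p of 0.0531, just above the threshold. After quantile normalization the Dnaja1 groups overlapped, with a difference of -0.19 (adjusted p = 0.246 in limma). A second, dimmer Dnaja1 probe further along the transcript had a difference of 0.16 with an interval across 0. The mean of the Dnaja1 probes differed by -0.096. Dnajb4, a heat-inducible cytosolic member, read -1.56, -0.75, -0.77 and -0.58 against -1.25, -1.29, -1.72 and -1.50, and GFP-negative replicate 1 lay among the GFP-positive arrays. Its difference was -0.52 ± 0.22 (SE, adjusted p = 0.207). Dnajb1, which encodes HSP40 and is itself heat inducible, differed by -0.14 without overlap of the groups (unadjusted p = 0.0529). Dnaja2 differed by -0.19, and Dnajb6, which holds back the aggregation of polyglutamine proteins, by 0.22.

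All 9 genes of the HSP90 system had negative differences, from -0.37 to -0.13 with a median of -0.31, and 7 of the 9 had an unadjusted p under 0.05 and groups that did not overlap. Of all features tested, 15.1% were lower at that p and 11.6% lower without overlap. In the brightest class 28.4% were lower at that p. Differences were negative for 60.7% of all features and for 80.1% of that class. None of the 9 passed the adjusted threshold in limma. After quantile normalization the median was -0.15, with 4 of 9 lower at that p and 5 lower without overlap, beside 10.7% and 7.6% of all features. The inducible HSP90 gene, Hsp90aa1, read 7.42, 7.23, 7.35 and 7.37 on the GFP-negative arrays and 7.05, 7.18, 6.95 and 6.98 on the GFP-positive ones, a difference of -0.31 ± 0.08 (SE), adjusted p 0.0811. Its constitutive partner Hsp90ab1 read 8.93, 8.76, 8.90 and 8.88 against 8.64, 8.70, 8.64 and 8.66, a difference of -0.21 (adjusted p = 0.116). The Hsp90aa1 difference was equal in the 2 slide rows (-0.31 in each). For both HSP90 genes the groups overlapped after quantile normalization, with -0.15 for Hsp90aa1 and -0.07 for Hsp90ab1.

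The co-chaperones are given roughly in the order in which HSP90 takes up a client. St13 encodes HIP, which steadies the HSP70 and client complex, and read 5.97, 5.998, 5.91 and 6.09 on the GFP-negative arrays and 5.62, 5.78, 5.61 and 5.73 on the GFP-positive ones (-0.31, adjusted p = 0.0692). Stip1 encodes HOP, the bridge from HSP70 to HSP90, and read 4.68, 4.68, 4.67 and 4.75 against 4.42, 4.59, 4.36 and 4.38 (-0.26, adjusted p = 0.1). Ahsa1 encodes AHA1, the activator of the HSP90 ATPase, and read 6.69, 6.73, 6.65 and 6.81 against 6.23, 6.55, 6.26 and 6.37 (-0.37, adjusted p = 0.0694). In each of these 3 genes GFP-positive replicate 2 was the GFP-positive array nearest to the GFP-negative ones. Fkbp4, the immunophilin FKBP52 of steroid receptor complexes, read 4.12, 3.92, 3.95 and 3.89 against 3.56, 3.71, 3.77 and 3.44 (-0.35, adjusted p = 0.0913). Ptges3 encodes p23, which closes the HSP90 clamp, and read 6.90, 6.72, 6.68 and 6.89 against 6.37, 6.64, 6.42 and 6.46 (-0.33, adjusted p = 0.0913). All 4 Ptges3 probes had negative differences, from -0.33 to -0.13. The kinase co-chaperone Cdc37 differed by -0.15 and Chordc1, a stress-responsive HSP90 partner, by -0.13, both with overlapping groups, and Cdc37 was at -0.00079 after quantile normalization.

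The chaperonins also had negative differences throughout, from -0.47 to -0.21 with a median of -0.29. Of all features, 60.7% had a negative difference, and of the brightest class 80.1%. In 6 of 7 chaperonins the groups did not overlap, beside 11.6% of all features lower without overlap. After quantile normalization the median was -0.16, and 4 of 7 did not overlap, beside 7.6% of all features. Hspd1 and Hspe1 encode HSP60 and HSP10, the barrel and lid of the mitochondrial chaperonin. They are the head-to-head pair described above, whose printed run is upstream of Hspe1 and of an Hspd1 start. Hspd1 read 7.04, 6.93, 7.10 and 7.22 on the GFP-negative arrays and 6.51, 6.77, 6.59 and 6.68 on the GFP-positive ones, a difference of -0.44 ± 0.09 (SE), with an adjusted p of 0.051. Hspe1 read 6.96, 6.92, 6.94 and 7.04 against 6.65, 6.84, 6.37 and 6.78, a difference of -0.30 ± 0.11 (SE, adjusted p = 0.153), and its other probes differed by -0.36 and -0.37. GFP-positive replicate 3 was the lowest array for Hspe1 but not for Hspd1.

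The cytosolic chaperonin TRiC is a ring of 8 different subunits, of which 5 are among these genes. Cct3 read 5.45, 5.48, 5.47 and 5.64 on the GFP-negative arrays and 4.92, 5.30, 4.92 and 5.04 on the GFP-positive ones (-0.47, adjusted p = 0.0582). Cct4 read 5.71, 5.67, 5.64 and 5.77 against 5.40, 5.45, 5.47 and 5.35 (-0.28, adjusted p = 0.0634). These 2 subunits showed no overlap under quantile normalization either, with -0.37 and -0.17. Cct5 read 7.71, 7.53, 7.62 and 7.76 against 7.36, 7.53, 7.23 and 7.33 (-0.29, adjusted p = 0.112). Cct2 read 7.27, 7.08, 7.13 and 7.18 against 6.86, 7.05, 6.96 and 6.79 (-0.25, adjusted p = 0.134). In both, GFP-positive replicate 2 lay just below the lowest GFP-negative array, and the groups overlapped after quantile normalization. Tcp1, the founding subunit, differed by -0.21 with overlapping groups.

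The 2 transcription factors had small differences, and neither reached an unadjusted p under 0.05. Hsf1, the main regulator of the heat shock response, read 3.46, 3.30, 3.27 and 3.54 on the GFP-negative arrays and 3.27, 3.40, 3.05 and 3.17 on the GFP-positive ones, a difference of -0.17 ± 0.10 (SE, interval -0.40 to 0.07). Hsf2, its partner in development, read 1.34, 1.12, 1.50 and 1.18 against 1.17, 0.97, 1.06 and 1.05, a difference of -0.22 ± 0.10 (SE, interval -0.45 to 0.01). In both genes the groups overlapped. Hsf1 acts mostly through release and phosphorylation of its protein, which these arrays do not measure.

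The 10 genes with several probes mostly gave the same sign from each. Over all 53 probes, 44 were negative and 9 positive (42 and 11 after quantile normalization), and 7 of the 10 genes had probes of 1 sign. With every kept probe as a feature, 2 probes were called higher, both of Cryab, and 1 lower, of Hsph1, beside 1.52% and 0.478% of all 27591 probes. The 3 genes with mixed signs were Dnaja1, Dnajb6 and Hspa8. For Hspa8, which encodes the constitutive HSC70, the probes at transcript positions 730, 1812 and 2044 differed by -0.28, -0.15 and 0.04. The brightest, which stands for the gene in the counts, is thus the only positive one, and the mean over its probes was -0.13. The Dnajb6 probes at positions 376 and 500 had differences of -0.08 and -0.09 and those at 2544 and 2550 of 0.22 and 0.10, none with an interval away from 0.

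**Figure D4:**
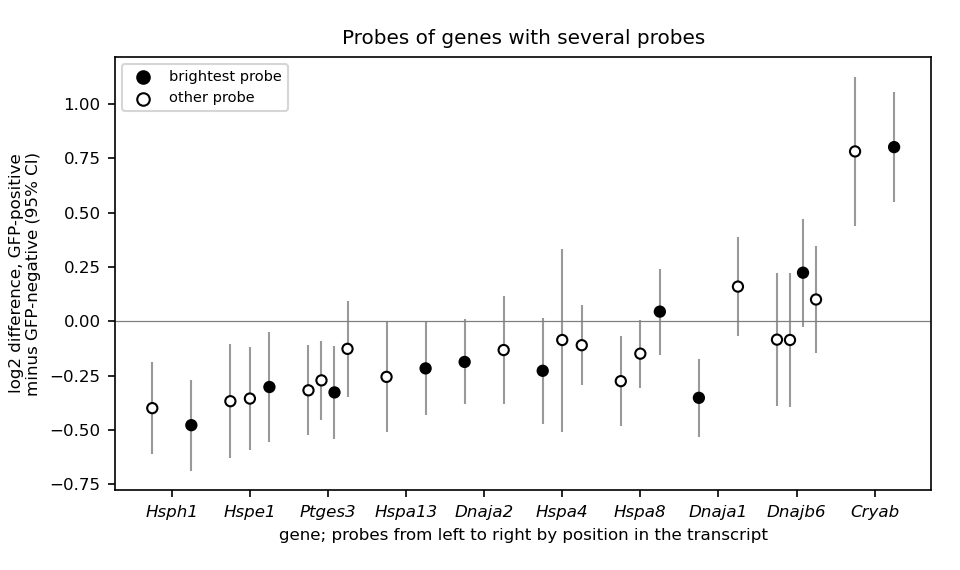
Log2 difference (vertical axis, bars are 95% confidence intervals) of each probe of the 10 genes with several probes, in order of position along the transcript within a gene; filled circles are the brightest probe, used as the gene's value. Both Cryab probes lie above 0.5, all probes of Hsph1, Hspe1 and Ptges3 lie below 0, and Hspa8, Dnaja1 and Dnajb6 have probes on either side.

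Summed over the 36 genes, the arrays of the groups did not overlap. The mean deviation of a gene from its own 8-array mean was 0.09, 0.05, 0.11 and 0.15 on GFP-negative replicates 1 to 4 and -0.10, -0.01, -0.14 and -0.15 on GFP-positive replicates 1 to 4. GFP-positive replicate 2 lay nearest to the GFP-negative arrays, with 17 of 36 genes below their own mean against 29, 30 and 33 on the other GFP-positive arrays. After quantile normalization the GFP-negative arrays ran from 0.01 to 0.08 and the GFP-positive ones from -0.11 to -0.02. Each slide row held 2 arrays of each group. Within row 1 the median over the 36 genes was -0.28 with 31 negative, and within row 2 -0.20 with 31 negative, against -0.06 for all features in each. Of all features 57.8% were negative in row 1 and 59.2% in row 2. Over both rows 80.1% of the brightest class were. Other gene lists also had medians away from 0. The 12 housekeeping genes had a median of -0.09, with 10 negative, 2 of them at an unadjusted p under 0.05, and 0 past the threshold, and 0.02 after quantile normalization. Fibroblast and endothelial markers, 8 of 10 tested, had a median of -1.48 with 7 negative, 1 of them at that p, and 0 past the threshold. The endothelial genes Kdr and Pecam1 differed by -0.005 and 0.13, and the fibroblast genes by -2.12 (Col1a1) to -1.05 (Pdgfrb). In row 1 the fibroblast genes differed by -4.65 to -1.86. In row 2 Dcn differed by -1.63 and the other fibroblast genes by 0.31 to 0.94. The mean deviation of the whole list ran from -0.68 to 1.42 on GFP-negative and from -1.97 to 0.46 on GFP-positive arrays, with Lum and Cdh5 well above background on 0 arrays. Macrophage and leukocyte markers, 5 of 8 tested, had mean deviations from -0.35 to -0.04 on GFP-negative and from 0.09 to 0.27 on GFP-positive arrays. Of these, 2 were higher past the threshold (Cd68 and Cd14), beside 1.81% of all features. The other tested markers, Csf1r, Itgam and Cd3e, differed by 0.29, 0.03 and -0.08, with overlapping groups. Ptprc and Adgre1 were each well above background on 1 array. The part of any of these lists in the chaperone values was not tested.

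**Figure D5:**
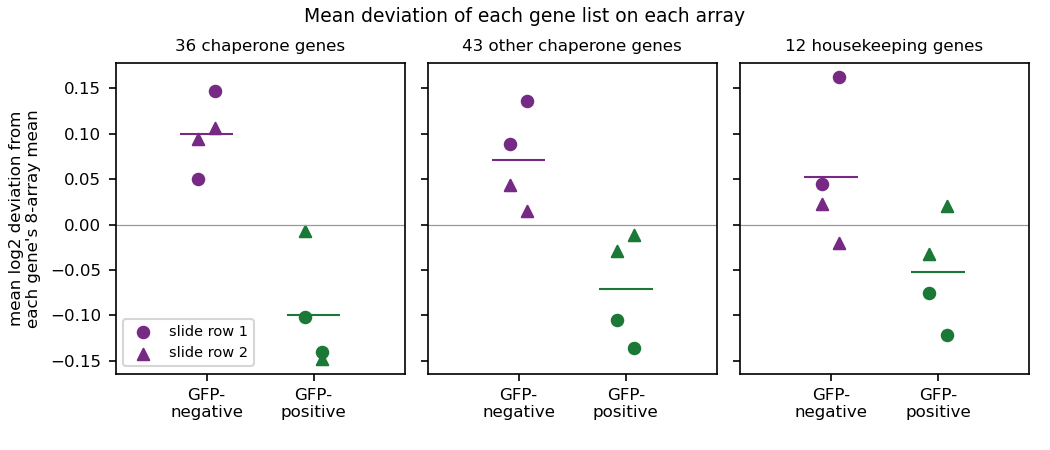
Mean log2 deviation from each gene's 8-array mean (vertical axis) for the 36 chaperone genes, 43 other chaperone genes and 12 housekeeping genes; each point is an array, circles in slide row 1 and triangles in slide row 2, and lines are group means of 4 arrays. For the 36 genes the GFP-negative arrays lie between 0.05 and 0.15 and the GFP-positive arrays between -0.15 and -0.01. For the 43 other chaperone genes they also do not overlap, at 0.02 to 0.14 and -0.14 to -0.01. After quantile normalization, not drawn, those of the 43 genes overlap (-0.02 to 0.10 and -0.09 to 0.03). The housekeeping arrays overlap.

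A list of 48 further chaperone genes, among them the other TRiC subunits, prefoldins and BAG proteins, also had mostly negative differences. Of the 43 that were tested, 33 were negative and 10 positive, beside 60.7% of all features negative. Their median was -0.18, and 0 passed the adjusted threshold. At an unadjusted p under 0.05, 18 were lower and 2 higher, beside 15.1% and 7.83% of all features. The groups did not overlap for 10 lower and 2 higher genes, beside 11.6% and 5.06%. After quantile normalization the median was -0.09 with 31 negative, 11 were lower at that p (10.7% of all features) and 6 were lower without overlap (7.6%). By size, the leading genes at that p were Serpinh1, the collagen chaperone HSP47 (-0.52), Ppid, the HSP90 immunophilin cyclophilin 40 (-0.48, adjusted p = 0.0549), the TRiC subunits Cct6a (-0.43) and Cct8 (-0.37), Fkbp5, the immunophilin FKBP51 (-0.40), and Hspb2 (0.41). Hspb2 is the neighbour of Cryab in the genome, and was the only one of these 6 with a positive difference. Its levels were 2.73, 2.65, 2.76 and 2.27 on GFP-negative replicates 1 to 4 and 3.17, 2.90, 2.94 and 3.04 on GFP-positive replicates 1 to 4, without overlap (adjusted p = 0.111).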

How the data were processed

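Sorted MAM326 cells were measured on 8 single-colour Agilent arrays, 4 per GFP fraction, grouped by the labels. The 37 genes, the other gene lists and the settings were chosen with earlier results of these data known.

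The deposited intensity values are the processed signals of Agilent Feature Extraction, with version 10.7.3.1, protocol GE1_107_Sep09 and build mm9 per the file headers. That program had corrected them for background. Later steps of the authors are not given in the sources. The deposited arrays were not on a common scale.

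Spots flagged as outliers were left out. Each array's log2 signal was set relative to its 75th percentile, and spots of a probe were averaged. A probe was kept where 4 or more of the 8 arrays had it well above background (27591 of 55681). The brightest kept probe stood for its gene, which gave 19694 features. Accessions of 49.4% of probes matched RefSeq gene symbols. The others kept the file's name, or took the current symbol where that name was an unambiguous older one. The log2 difference between fractions was estimated by limma 3.58.1 in R 4.3.3 (lmFit and eBayes, two-sided, Benjamini-Hochberg over all features, threshold 0.05). Errors beside differences are standard errors and intervals are 95% confidence intervals. The fit was tested on simulated data.

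Values array by array are given for genes past the threshold or at an unadjusted p under 0.05, for Hspa1a, Hsf1 and Hsf2, and other genes are given by difference. Of the 48 other chaperone genes, at most 6 are named, by size at that p. Alternatives were quantile, array median and normexp (offset 50) scaling, other filters, other uses of several probes, blocks, array weights, an intensity trend with robust prior, and leaving out each array. Promoter windows came from RefSeq (GRCm38.p6). Proteins and exon positions were not analysed here. The detection of a further leukocyte marker is not reported here.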

Additional observations from a re-analysis of the deposited data

Results flagged for a closer look

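Of 72 sets of 4 values (36 genes in 2 groups), 3 held an array set apart from the other arrays of its group by a large gap, where chance gives about 1 in 20. Dnajb1 on GFP-positive replicate 3 was the lowest of its group at 5.69, with the next at 5.77. Hspa13 on GFP-positive replicate 2 was the highest of its group at 3.05, with the next at 2.94, and its overlap with the GFP-negative arrays came from that array. Hspa2 on GFP-positive replicate 2 was the lowest of its group at 1.53, with the next at 1.84.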

How the results depend on the processing

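Over 21 alternatives, 31 of 36 genes kept their sign. Counts past the threshold, 2 genes (1 higher, 1 lower), were 1 (1 and 0) with quantile normalization, 9 (1 and 8) with normexp, 0 with no filter on dim probes, 5 (1 and 4) with probes above background on all arrays, 1 (1 and 0) with slide row as a block, 3 (2 and 1) within row 1, 0 within row 2, 13 (1 and 12) with array weights, and 12 (1 and 11) with a prior that is robust and follows intensity. The share of all features called lower moved too, from 0.741% to 1.84% with normexp, 1.87% with the stricter filter, 5.61% with array weights and 3.19% with that prior. Leaving out 1 array gave 0 to 3 (0 to 1 higher, 0 to 2 lower), beside 146 to 302 higher and 4 to 120 lower over all features. The 21 genes lower at an unadjusted p under 0.05 became 12 with quantile normalization, 12 in row 1 and 5 in row 2, and 16 to 22 without 1 array. Over all features, the 2982 lower at that p became 2117, 2845 and 1019 in these settings, and 1935 to 3064 without 1 array. The other chaperone genes past the threshold, 0 in the fit reported, were 2 with normexp, 2 with the stricter filter, 1 with the mean of probes, 1 in row 1, 10 with array weights, 4 with that prior, and 0 to 1 without 1 array. The median of -0.24 was -0.15 with quantile normalization, -0.36 with array medians, where that of all features was -0.18, and -0.29 to -0.22 without 1 array, farthest from 0 without GFP-positive replicate 2. Signs turned for Hspa14 with quantile normalization (0.021) and in row 2 (0.010), for Hspa1a (-0.37) and Hspb1 (-0.066) in row 2, for Hspa2 with array medians (-0.043), and for Hspa8 with array medians (-0.0777), the mean of its probes (-0.13), in row 1 (-0.0779) and without GFP-positive replicate 4 (-0.0078, up to 0.10 without another array). The cause was not tested. A replicate block left 1 gene (1 higher, 0 lower), but same-number arrays did not deviate together (r from -0.03 to 0.19), and 0 of 8 arrays correlated best with their own number.

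Cryab passed in 18 of the 21 alternatives and Hsph1 in 7. Within a slide row, 2 arrays stand against 2, and limma called 624 of 19694 features higher and 422 lower in row 1 but 0 in row 2 (1019 lower at an unadjusted p under 0.05).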
